A study of Mus musculus with 17 samples.

Results

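Bile acid handling in the colon of mice was followed through 7 genes, chosen by name as the ligand, transporters, binding protein, receptor and enzyme of bile acid recycling, among the 37074 genes or transcripts named on the array. They are Fgf15, Slc10a2, Fabp6, Slc51a, Slc51b, Gpbar1 and Cyp27a1, and 8 of the 56605 probes carry these names (2 for Slc51a and 1 for each other gene). RNA from the colon of 17 male mice on the C57Bl6/J background was hybridized to 17 one-colour arrays. Wild-type mice (WT), bought at 6 weeks of age, received corn oil alone (WT CONT, n = 4) or pregnenolone 16α-carbonitrile in corn oil (WT PCN, n = 4). Mice lacking the pregnane X receptor, PXR, received corn oil (Pxr-/- CONT, n = 5) or PCN (Pxr-/- PCN, n = 4). PCN, a ligand of rodent PXR, was injected intraperitoneally at 100 mg/kg on each of 4 days, and all mice were killed fed at ZT6, 6 h after the last injection. The Pxr-/- mice, backcrossed to this strain, came from an in-house colony and the WT mice from a supplier, so genotype and colony cannot be told apart. All had 2 weeks to acclimatize. The labels do not say which stretch of the colon was taken. In whole tissue, fewer cells of a type and less RNA per cell cannot be told apart.

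Bile acids are made from cholesterol in the liver, secreted into the gut and mostly taken back in the ileum. Slc10a2 (ASBT) carries them across the apical membrane of the enterocyte, Fabp6 binds them in the cytosol, and Slc51a and Slc51b form the heterodimer OSTα-OSTβ that releases them into the blood. Bile acids bind the nuclear receptor FXR (Nr1h4), which in the ileum induces Fabp6, both OST subunits and Fgf15, a hormone that lowers bile acid synthesis in the liver through FGFR4 and β-Klotho. Gpbar1 (TGR5) is a membrane receptor for bile acids, present on enteroendocrine cells and macrophages among others, and Cyp27a1 is the mitochondrial sterol 27-hydroxylase of the alternative synthesis pathway. PXR itself is activated by some secondary bile acids, and the comparisons ask whether its ligand or its absence changed these genes in the colon.

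The sequences that carry the main results are the probes of the transporters and of the binding protein, because a level on these arrays is the brightness of 1 such 60-base probe. They are given as the array files list them, with mm9 positions and all on the minus strand, and without capitals.
Slc10a2, chr8:5086145-5086204: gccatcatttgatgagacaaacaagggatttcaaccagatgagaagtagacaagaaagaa
Fabp6, chr11:43410973-43411032: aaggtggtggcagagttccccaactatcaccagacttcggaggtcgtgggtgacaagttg
Slc51a, the other probe, chr16:32475871-32475930: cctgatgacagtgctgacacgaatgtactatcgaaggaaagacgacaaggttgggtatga
Slc51b, chr9:65260705-65260764: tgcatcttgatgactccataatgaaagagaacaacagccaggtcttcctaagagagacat
For Slc51a the values below come from the brighter probe, chr16:32475636-32475695, and the probe printed here serves as its check. The remaining probes lie at chr7:152086371-152086430 for Fgf15, chr1:74326104-74326163 for Gpbar1 and chr1:74782203-74782262 for Cyp27a1, all on the plus strand. By RefSeq (GRCm38.p6), Gpbar1 and Cyp27a1 are both on chromosome 1, at 74278600-74279589 and 74713148-74737897, and the remaining members are on chromosomes of their own.

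Slc51a, Slc51b and Slc10a2 are compared with each other below, and the bases before the genes of both OST subunits are shown since both subunits are needed for transport. The 250 bases before each start site, from RefSeq on GRCm38.p6 and on the minus strand, are printed with the nuclear receptor half-site AGGTCA in capitals, or TGACCT where it lies on the other strand.
Slc51b, chr9:65422774-65423023: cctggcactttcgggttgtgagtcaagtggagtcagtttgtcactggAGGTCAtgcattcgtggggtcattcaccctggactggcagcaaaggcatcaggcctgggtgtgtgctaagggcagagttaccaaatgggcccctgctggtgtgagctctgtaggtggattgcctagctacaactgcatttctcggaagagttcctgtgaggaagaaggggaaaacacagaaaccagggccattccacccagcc
Slc51a, chr16:32487880-32488129: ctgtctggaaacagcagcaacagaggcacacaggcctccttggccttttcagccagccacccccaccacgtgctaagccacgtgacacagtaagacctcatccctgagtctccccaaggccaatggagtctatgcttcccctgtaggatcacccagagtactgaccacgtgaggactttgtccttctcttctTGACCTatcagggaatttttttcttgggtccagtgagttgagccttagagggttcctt
The match starts 203 bases before the start site in Slc51b and 58 bases before it in Slc51a, and 14.0% of 32851 promoters of this length hold AGGTCA on either strand. The exact inverted repeat of this half-site with 1 base between its arms, an idealized FXR element that overlaps the half-site search on both strands, is in neither, and in 0.00609% of all promoters. Slc10a2 and Fabp6 hold no AGGTCA in this window and 1 TTTATG each (10.8% of promoters), and Slc10a2 also 1 GTTAAT (6.43% of promoters), both searched on both strands. AGATAA, the GATA motif (9.99% of promoters), is in none of the 6 members with an entry, and Gpbar1 and Cyp27a1 hold none of the motifs.

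An array had 62.7% to 71.0% of its spots well above the background and none saturated. A pair of arrays with different labels, WT PCN 4 and Pxr-/- PCN 2, differed with an SD of 0.136 (log2) over 32160 probes, and WT PCN 3 and Pxr-/- CONT 2 with an SD of 0.155, against 0.260 to 0.577 in the other 134 pairs. In these pairs the levels of Slc51a differed by 0.01 and 0.07. Nr1i2, the gene for PXR, was at 11.85 to 12.44 (log2 signal) on the other 6 WT arrays and at 10.39 to 11.93 on the 9 Pxr-/- arrays, while WT PCN 3 and WT PCN 4 lay at 11.10 and 11.15, inside the range of the arrays labelled Pxr-/-. Whether its probe lies in the deleted part is not given in the sources used here. Results are therefore given for all 17 arrays as labelled, and for the main values also without these 4.

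Of the 7 genes, 6 were well above the background on every array, and Fgf15 on none. The Fgf15 spot had a median intensity of 26 to 54 against a local background of 20 to 36, so the array gives only an upper bound for this hormone in any group, and it was not tested. Of the others, none passed the test (FDR at most 0.05 and fold change over 1.5) between WT PCN and WT CONT, between Pxr-/- PCN and Pxr-/- CONT, between genotypes in either treatment, or in the difference of the PCN effects, where 0% to 0.00517% of the 38703 tested probes passed. Slc51a and Slc10a2 instead varied widely inside every group, with SDs of 2.21 to 4.18 and of 0.93 to 2.21. Over the 17 arrays they spanned 10.15 and 6.17 on the log2 scale. Slc51b spanned 2.20 over the 17 arrays, with SDs of 0.36 to 0.86 inside the groups. Fabp6 spanned 3.97, Cyp27a1 1.95 and Gpbar1 0.72.

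**Figure D1:**
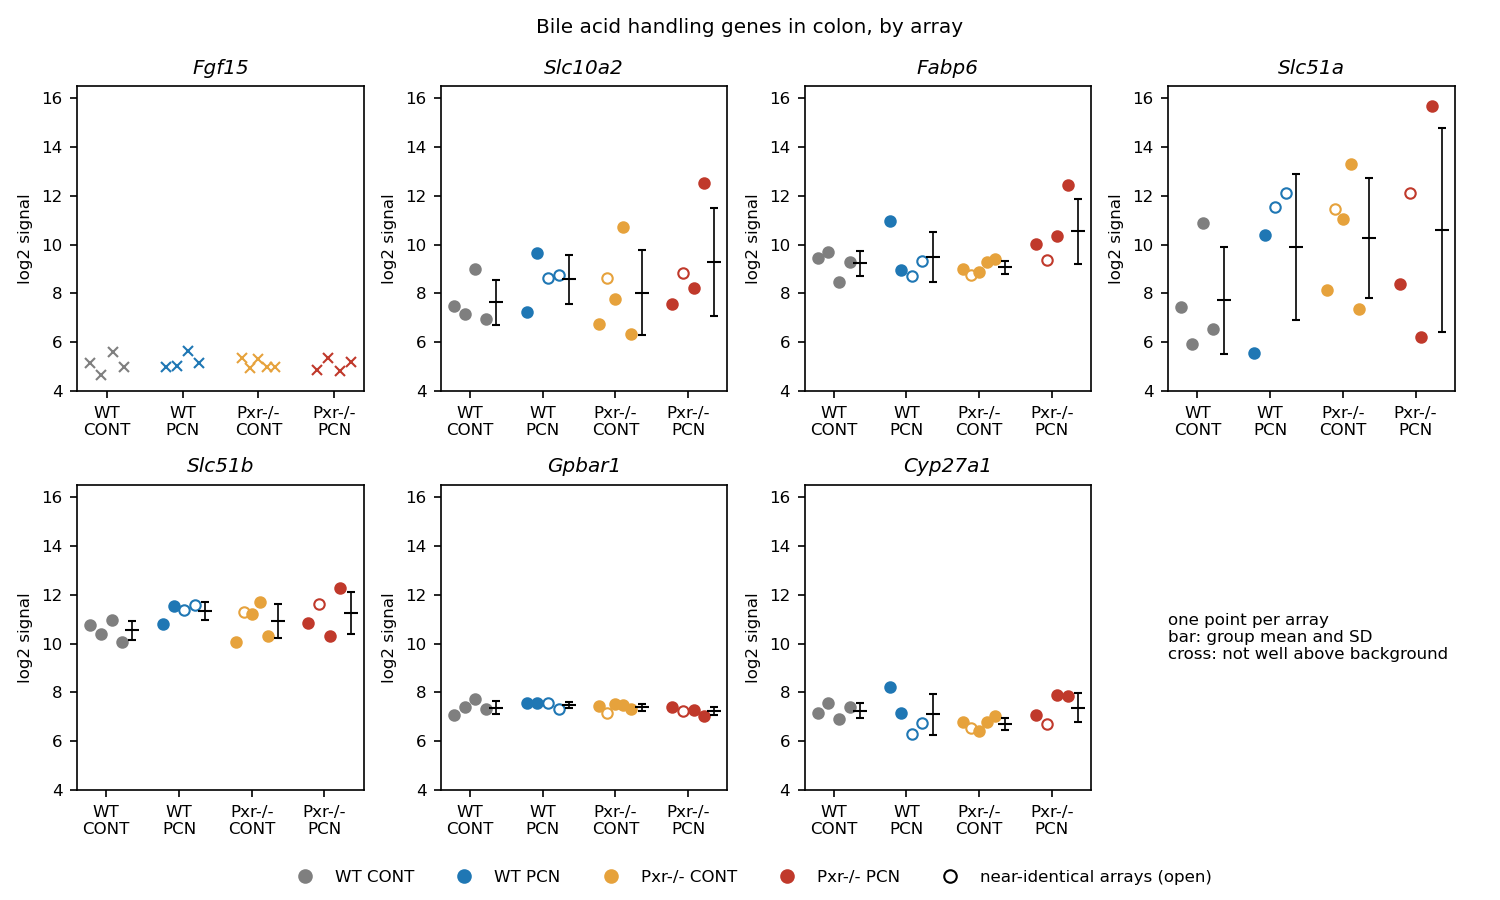
Log2 signal (vertical axis, quantile-normalized) of the 7 genes in each of the 17 arrays, by group, with 1 point per array, the group mean ± SD as a bar, open points for the 4 near-identical arrays and crosses for spots not well above the background. Slc51a spreads over 10.15 log2 units, Gpbar1 over 0.72, the Fgf15 spots reach at most 5.62, and for each of the other 6 genes the arrays of every group overlap with those of the others.

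The uptake transporter Slc10a2 had log2 signals of 7.48, 7.14, 8.99 and 6.94 in WT CONT and of 7.25, 9.65, 8.64 and 8.77 in WT PCN. In Pxr-/- CONT they were 6.73, 8.62, 7.77, 10.73 and 6.33, and in Pxr-/- PCN 7.56, 8.85, 8.21 and 12.51. Each group held low and high arrays, all groups overlapped, and 1 Pxr-/- PCN array was the highest of all. The group means ± SD were 7.64 ± 0.93 (n = 4), 8.58 ± 0.99 (n = 4), 8.04 ± 1.75 (n = 5) and 9.28 ± 2.21 (n = 4). The difference between PCN and CONT was 0.84 on the log2 scale in WT (SE 1.06, limma adjusted p = 0.956) and 1.21 in Pxr-/- (SE 1.00, limma adjusted p = 0.855). The latter was set by 1 array, since it was −0.10 without Pxr-/- PCN 4. Another probe, listed under 9130221J18Rik, an older name of Slc10a2 in RefSeq, gave 6.30 to 12.53 and never differed from the first by more than 0.36, with r = 0.995 over 17 arrays.

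Slc51a, the α subunit of the basolateral exporter, was at 7.46, 5.94, 10.89 and 6.56 in WT CONT and at 5.55, 10.39, 11.53 and 12.12 in WT PCN. It was at 8.14, 11.46, 11.03, 13.30 and 7.36 in Pxr-/- CONT and at 8.40, 12.13, 6.20 and 15.70 in Pxr-/- PCN. Its lowest array was a WT PCN array and its highest a Pxr-/- PCN array, and no group was without both low and high values. No array lay between 8.40 and 10.39, a gap of 2.00, and each group had arrays on both sides of it, 8 below and 9 above in all. WT CONT had 3 of its 4 arrays below and WT PCN 1 of its 4, while Pxr-/- CONT had 2 of 5 and Pxr-/- PCN 2 of 4. A wider gap, of 2.40, lay between 13.30 and 15.70, with only Pxr-/- PCN 4 above it. Whether the levels fall into separate classes was not tested, and the gap named below is that from 8.40 to 10.39. The other probe followed, at 4.76 to 13.62 and above the background on 14 arrays, with r = 0.994 over 17 arrays, and was dimmer by 0.69 to 2.41.

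For Slc51a, WT CONT had a mean of 7.71 ± 2.21 (SD, n = 4) and WT PCN of 9.90 ± 2.99 (SD, n = 4). Pxr-/- CONT averaged 10.26 ± 2.46 (SD, n = 5), with Pxr-/- PCN close to it at 10.61 ± 4.18 (SD, n = 4). The SD within groups, 3.01, exceeded the distance of 2.90 between the lowest and the highest group mean. PCN against CONT gave 1.98 in WT with a 95% interval from −2.34 to 6.30 (limma adjusted p = 0.956) and 0.27 in Pxr-/- (SE 1.89, limma adjusted p = 0.989). The largest difference was that of Pxr-/- CONT against WT CONT, 2.63, with a 95% interval from −1.42 to 6.67 (limma adjusted p = 0.571, exact permutation p = 0.111). Intervals this wide leave room for large changes in either direction. Without the 4 near-identical arrays the difference in WT was 0.26 (SE 2.64), and without Pxr-/- PCN 4 that in Pxr-/- was −1.84.

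Slc51b, the β subunit, which stabilizes its partner at the membrane, moved over a smaller range. It was at 10.76, 10.38, 10.97 and 10.08 in WT CONT and at 10.80, 11.55, 11.36 and 11.59 in WT PCN. It was at 10.07, 11.29, 11.21, 11.69 and 10.30 in Pxr-/- CONT and at 10.85, 11.63, 10.32 and 12.27 in Pxr-/- PCN. In WT 3 of the 4 PCN arrays were above every CONT array, and the remaining one, at 10.80, lay among them. PCN against CONT was 0.71 in WT, with a 95% interval from −0.17 to 1.59 (limma adjusted p = 0.956, exact two-sided permutation p = 0.0571), but of the 3 high WT PCN arrays 2 are of the near-identical pairs. In Pxr-/- the difference was 0.33 (SE 0.38, limma adjusted p = 0.910), and −0.11 without Pxr-/- PCN 4.

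Fabp6, the cytosolic bile acid binding protein of enterocytes, had another pattern. It was at 9.43, 9.69, 8.49 and 9.30 in WT CONT, at 10.97, 8.96, 8.70 and 9.32 in WT PCN, and at 8.98, 8.74, 8.89, 9.31 and 9.40 in Pxr-/- CONT. In Pxr-/- PCN it was at 10.01, 9.36, 10.34 and 12.46, so that 3 of the 4 arrays lay above every Pxr-/- CONT array and the remaining one, replicate 2, lay among them. Pxr-/- CONT thus averaged 9.07 ± 0.28 (SD, n = 5), against 10.54 ± 1.34 (SD, n = 4) in Pxr-/- PCN. The difference of 1.53 on the log2 scale had an SE of 0.51 and an unadjusted p of 0.00977 (exact permutation p = 0.0317), which did not pass over all probes (limma adjusted p = 0.530). It was 0.90 without Pxr-/- PCN 4. Without the 4 near-identical arrays the groups did not overlap and the difference was 1.73 (SE 0.59, limma adjusted p = 0.569), with an exact permutation p of 0.0571, the smallest that 4 against 3 arrays allow. In WT it was 0.39 (SE 0.55, limma adjusted p = 0.958), 0.74 without the 4 near-identical arrays and −0.13 without WT PCN 1, and the difference between the PCN effects in the genotypes was 1.13 (SE 0.75, limma adjusted p = 0.848).

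Cyp27a1 was at 7.15, 7.56, 6.90 and 7.42 in WT CONT, at 8.23, 7.15, 6.28 and 6.75 in WT PCN, at 6.79, 6.54, 6.41, 6.78 and 7.03 in Pxr-/- CONT and at 7.06, 6.70, 7.88 and 7.85 in Pxr-/- PCN. As for Fabp6, 3 of the 4 Pxr-/- PCN arrays were above every Pxr-/- CONT array and replicate 2 was not. PCN against CONT in Pxr-/- was 0.69, with a 95% interval from 0.02 to 1.37 and an unadjusted p of 0.0443 (limma adjusted p = 0.659, exact permutation p = 0.0952). Without the 4 near-identical arrays it was 0.82 (SE 0.29, limma adjusted p = 0.581), with no overlap. Pxr-/- CONT against WT CONT was −0.58 (SE 0.32, limma adjusted p = 0.456, exact permutation p = 0.0317), and the groups shared the range from 6.90 to 7.03. In WT the difference with PCN was −0.07 (SE 0.34), and 0.43 without the 4 near-identical arrays.

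The membrane receptor Gpbar1 was the steadiest of the 6 genes, at 7.06 to 7.74 in WT CONT, 7.32 to 7.57 in WT PCN, 7.18 to 7.51 in Pxr-/- CONT and 7.02 to 7.38 in Pxr-/- PCN. PCN against CONT was 0.13 in WT (SE 0.13) and −0.15 in Pxr-/- (SE 0.12). Pxr-/- PCN against WT PCN was −0.27 (SE 0.13, unadjusted p = 0.0567, exact permutation p = 0.0571), and −0.34 without the 4 near-identical arrays, where the groups did not overlap and the exact permutation p of 0.200 was the smallest that can be had.

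Over all probes, the share called in the 17 arrays was 0% for WT PCN against WT CONT, 0.00517% for Pxr-/- PCN against Pxr-/- CONT, 0% for Pxr-/- CONT against WT CONT, 0% for Pxr-/- PCN against WT PCN and 0% for the difference of the PCN effects. Without the 4 near-identical arrays the shares were 0.0491%, 0.0517%, 0%, 0.0207% and 0.00258%, with 0 members called by limma in any of them. The share of all probes whose groups do not overlap was not counted on either set of arrays, so the members without overlap have no such measure beside them. At an unadjusted p under 0.05, 2 of the 6 tested members, Fabp6 and Cyp27a1, were higher in Pxr-/- PCN than in Pxr-/- CONT, where 7.35% of all probes reached that limit. In the other comparisons 0 of 6 did, against 4.66% of all probes for PCN in WT, 12.7% for Pxr-/- CONT against WT CONT, 3.28% for Pxr-/- PCN against WT PCN and 5.38% for the difference. Without the 4 near-identical arrays the same 2 genes passed this limit, again with PCN in Pxr-/- (7.19% of all probes), and no member did in WT with PCN (4.68%), between the CONT groups (10.1%), between the PCN groups (7.56%) or in the difference (2.95%). The median of the members' log2 differences was 0.55 for the PCN effect of WT mice and 0.51 for that of Pxr-/- mice, beside medians over all probes of 0.00 and 0.01. With Slc51a, Slc51b and Slc10a2 sharing the same high and low arrays, these medians are not 6 separate readings. Nor are the 2 genes under the unadjusted limit separate readings, since Fabp6 and Cyp27a1 also varied together across arrays (r = 0.767 over 15 points).

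**Figure D2:**
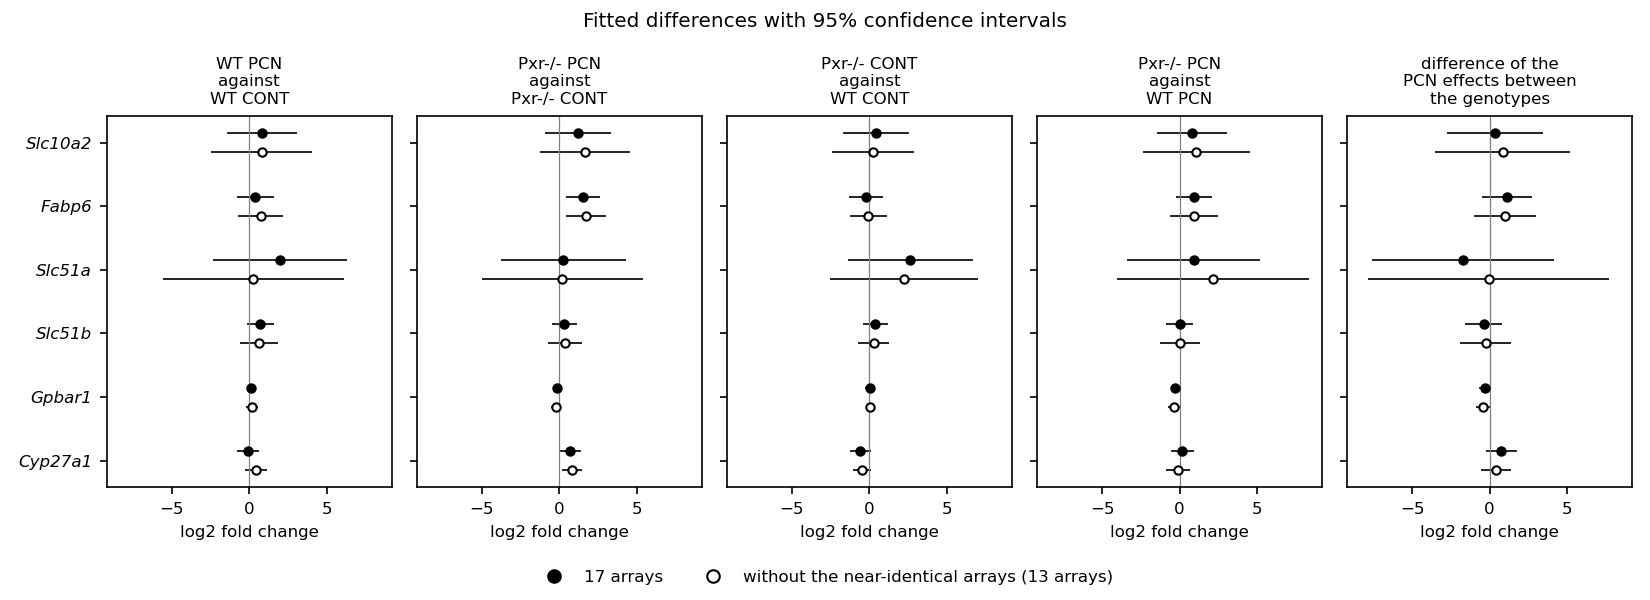
Log2 difference of each tested gene (horizontal axis) in the 5 comparisons, from limma on 17 arrays (filled) and on 13 without the near-identical arrays (open), with the 95% confidence interval as a line. The intervals of Slc51a are the widest (−2.34 to 6.30 for PCN in WT with 17 arrays), and with 17 arrays only those of Fabp6 and Cyp27a1 for PCN in Pxr-/- leave out 0.

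The spread of the transporters was large beside that of other probes. Among the 32160 probes measured above the background on every array, the SD over 17 arrays had a median of 0.171. Slc51a had an SD of 2.95, which 7 probes (0.0218%) exceeded, and Slc10a2 an SD of 1.56, which 72 probes (0.224%) exceeded. Fabp6 (SD 0.97) was passed by 0.877% of probes, Slc51b (SD 0.64) by 2.63%, Cyp27a1 (SD 0.55) by 3.81% and Gpbar1 (SD 0.19) by 41.5%. The uptake carrier and the exporter subunit at opposite faces of the enterocyte were thus among the probes that differed most over the 17 arrays. These SDs include differences between the groups, and ranks of the spread inside groups were not computed.

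To see whether the genes varied together, the 15 pairs among 6 genes were correlated over 15 points, the near-identical arrays being averaged in pairs. Slc51a and Slc51b had r = 0.890 (permutation p = 1e-05, the smallest that 100000 permutations give, adjusted 0.00015) and ρ = 0.818 (adjusted 0.002925). Slc10a2 and Slc51b had r = 0.882 (permutation p = 2e-05, adjusted 0.00015) and ρ = 0.900 (adjusted 0.0003). Slc10a2 and Slc51a had r = 0.857 (permutation p = 4e-05, adjusted 0.0002) and ρ = 0.757 (adjusted 0.0079). Without the 2 points farthest from the median the coefficients were 0.797, 0.800 and 0.688. Within the first wash bath (n = 7) they were 0.962, 0.769 and 0.752, and within the other (n = 7) 0.852, 0.949 and 0.941.

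Because no array lies in the gap of Slc51a from 8.40 to 10.39, the pairs that passed over all points were also correlated on each side of it. This split was chosen after seeing the data and narrows the range of Slc51a. Adjustment here was over these pairs only, picked on the same arrays, so the p-values are not independent of that choice. Among the 7 points above the gap, r was 0.867 for Slc51a with Slc51b, 0.861 for Slc10a2 with Slc51b and 0.860 for Slc10a2 with Slc51a (exact permutation, adjusted p = 0.0405 for each). The rank coefficients there were lower, at ρ = 0.786 (exact permutation, adjusted p = 0.176), 0.714 (exact permutation, adjusted p = 0.176) and 0.429 (exact permutation, adjusted p = 0.528). Among the 8 below it, r was 0.02 (exact permutation, adjusted p = 0.964), 0.412 (exact permutation, adjusted p = 0.420) and −0.218 (exact permutation, adjusted p = 0.697), with ρ of −0.07 (exact permutation, adjusted p = 0.935), 0.667 (exact permutation, adjusted p = 0.176) and −0.05 (exact permutation, adjusted p = 0.935). Whether the 2 sides differ was not tested. The pooled coefficients thus include the step across the gap, and on neither side did a rank coefficient pass. With the group means taken out, r over 17 arrays was 0.927, 0.872 and 0.864.

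Fabp6 and Cyp27a1 formed the other pair, with r = 0.767 (permutation p = 0.00082, adjusted 0.003075) and ρ = 0.729 (adjusted 0.0111), and r was 0.709 without the 2 farthest points. The coefficient was 0.841 and 0.790 within the wash baths. Below the gap in Slc51a r was 0.852 (exact permutation, adjusted p = 0.0405) with ρ = 0.762 (exact permutation, adjusted p = 0.176), and above it r was 0.836 (exact permutation, adjusted p = 0.0984) with ρ = 0.393 (exact permutation, adjusted p = 0.528). Slc51a and Fabp6, both induced by FXR in the ileum, had r = 0.113 over the 15 points and −0.577 without the 2 farthest. Slc51a and Cyp27a1 had r = −0.402 (permutation, adjusted p = 0.296), and −0.831 without the 2 farthest.

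**Figure D3:**
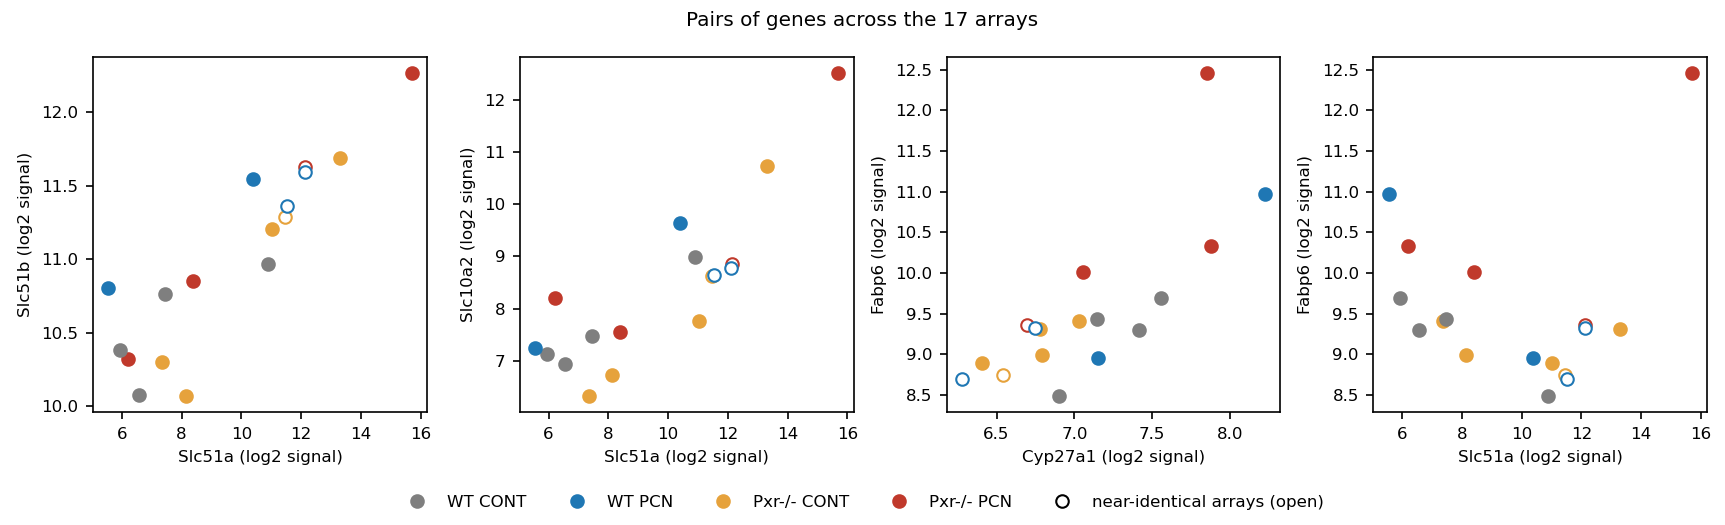
Log2 signal of pairs of genes against each other, 1 point per array, coloured by group, open for the near-identical arrays. No array lies between 8.40 and 10.39 for Slc51a, the arrays above this gap are higher in Slc51b (10.97 to 12.27) than those below it (10.07 to 10.85), and Pxr-/- PCN 4 stands at the top of Slc51a, Slc51b, Slc10a2 and Fabp6.

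Markers of position along the gut moved with the same arrays. The distal colon list held Hoxb13, Hoxd13, Hoxd12, Hoxa13 and Hoxd11, homeobox genes of posterior identity, 3 of the 5 above the background on all arrays and the other two on some. The mean log2 level of the 5 ranged from 8.03 to 9.88 in WT CONT, 8.05 to 10.31 in WT PCN, 7.70 to 9.47 in Pxr-/- CONT and 6.35 to 10.44 in Pxr-/- PCN. Across 17 arrays the list had r = −0.951 with Slc51a, −0.830 with Slc10a2 and −0.825 with Slc51b, given as a description. Singly, Hoxd13, Hoxd12 and Hoxb13 had r = −0.923, −0.892 and −0.847 with Slc51a. Hoxd11, above the background on 4 arrays, had −0.557, and Hoxa13, above it on all 17, had −0.370. With Slc10a2 the single genes ranged from −0.909 (Hoxb13) to −0.142 (Hoxd11), and with Slc51b from −0.799 (Hoxb13) to −0.302 (Hoxa13). Within the arrays below and above the gap the list had r = −0.841 and −0.842 for Slc51a, but 0.108 and −0.713 for Slc51b and 0.496 and −0.921 for Slc10a2. Pxr-/- PCN 4, highest in Slc51a, Slc51b, Slc10a2 and Fabp6, had the lowest list mean, and its Hoxb13 was at 7.53 where the other arrays had 12.88 to 16.09. Without that array the coefficients of the list were −0.934 (Slc51a), −0.719 (Slc10a2) and −0.756 (Slc51b).

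Fabp6 and Cyp27a1 ran otherwise against the Hox list. Over 17 arrays r was −0.046 and 0.403, and without Pxr-/- PCN 4 it was 0.812 and 0.832. Below the gap in Slc51a it was 0.810 for Fabp6 and 0.922 for Cyp27a1, and above it −0.860 and −0.798. Gpbar1 had r = 0.135. The single Hox genes disagreed for Fabp6, with r = −0.730 for Hoxa13, −0.470 for Hoxb13, 0.235 for Hoxd13, 0.276 for Hoxd12 and 0.625 for Hoxd11. For Cyp27a1 they had r = −0.477, −0.006, 0.626, 0.638 and 0.854, in the same order. When the list mean entered the model as a covariate, a fit added after seeing the data, the SE of the Slc51a differences was 0.419 to 0.613 over the 5 comparisons, where it had been 1.89 to 2.75. A fall was given in advance by the r of −0.951 between the list and Slc51a. The SE also fell for Slc10a2, Slc51b and Cyp27a1. It rose slightly for Gpbar1 and for Fabp6, from 0.515 to 0.748 before to 0.525 to 0.768 after. For PCN in WT the difference became 0.99 for Slc51a (SE 0.45, limma adjusted p = 0.836) and 0.52 for Slc51b (SE 0.18, limma adjusted p = 0.823). Pxr-/- CONT against WT CONT became 1.16 for Slc51a (SE 0.43, limma adjusted p = 0.296). Fabp6 for PCN in Pxr-/- stayed at 1.53 (SE 0.53, limma adjusted p = 0.318), and 0 members were called.

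**Figure D4:**
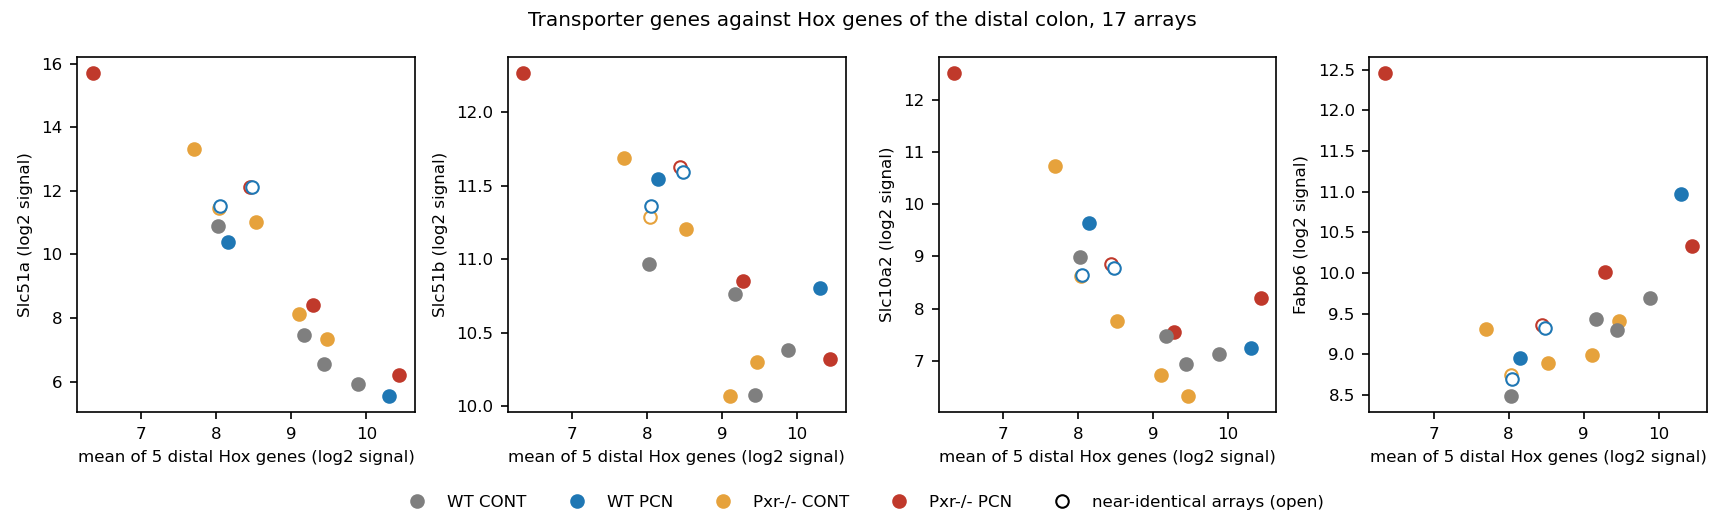
Log2 signal of Slc51a, Slc51b, Slc10a2 and Fabp6 (vertical axes) against the mean log2 level of 5 Hox genes of the distal colon (horizontal axis), 1 point per array, coloured by group, open for the near-identical arrays. Slc51a falls as the Hox mean rises (r = −0.951 over 17 arrays), and Pxr-/- PCN 4 stands at the left end with a mean of 6.35.

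The mean of 10 small intestinal enterocyte genes also moved with Slc51a, at 7.53 to 8.84 and with r = 0.910. Of the list 7 genes were above the background on all arrays, and they did not move as 1 group. Fabp2 (12.78 to 16.82), Alpi and Enpep had r = 0.839, 0.921 and 0.842 with Slc51a. Anpep, Mttp, Slc5a1 and Apoc3 had r = −0.852, −0.586, −0.285 and −0.091. The sucrase gene Sis was above the background on 9 arrays, and the lipoprotein genes Apoa1 and Apoa4 on 3 and 1. The share of ileal tissue in the samples was not tested. The Paneth cell genes did not move as 1 group with Slc51a, with r = 0.966 for Mmp7, 0.506 for Itln1, 0.330 for Defa24 and −0.596 for Lyz1. The colonocyte list had a mean of 13.11 to 13.92, with 5 of 6 genes above the background on all arrays. Those genes ran in opposite directions, with r against Slc51a of 0.805 for Car1, 0.717 for Krt20, −0.696 for Aqp8, −0.764 for Slc26a3 and −0.879 for Car4. Lists of macrophages (10.57 to 11.64, r = 0.608 with Cyp27a1), liver and pancreas also varied, and their part in the results was not tested.

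By the likeness of pattern over 17 arrays, with r taken against 20874 named genes above the background on all of them, the genes closest to Slc51a were Prap1 (r = 0.980), H2-T3 (r = 0.978) and Car8 (r = 0.968). Its partner Slc51b came at rank 133 and Slc10a2 at rank 330. Closest to Slc10a2 were Osr2 (r = 0.955), the phosphate transporter family member Slc17a4 (r = 0.955) and Hoxd8 (r = 0.941). Closest to Slc51b were Fst, which encodes follistatin (r = 0.945), Mall (r = 0.936) and Kcnip1 (r = 0.934). Fabp6 was closest to Ikzf2 (r = 0.889), the pore-forming claudin Cldn2 (r = 0.881) and the hyaluronan synthase Has2 (r = 0.876). Cyp27a1 was closest to the iron exporter Slc40a1 (r = 0.922), Fam213b (r = 0.919) and Cyp4v3 (r = 0.915). Gpbar1, with little spread to follow, was closest to Pde3a (r = 0.810), LOC102640811 (r = 0.757) and Nexn (r = 0.747).

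Of 35 other genes of bile acid sensing, transport and synthesis, 29 were tested and none was called by limma in any comparison. At an unadjusted p under 0.05, 2 of the 29 had a positive value with PCN in WT (4.66% of all probes reached this limit, in either direction), 3 with PCN in Pxr-/- (7.35% of all probes) and 2 in the difference of the PCN effects (5.38%). In Pxr-/- CONT against WT CONT 3 had a negative value (12.7% of all probes), and in Pxr-/- PCN against WT PCN none reached the limit (3.28%). These counts without the 4 near-identical arrays were 2 (4.68% of all probes), 2 (7.19%), 0 (2.95%), 1 (10.1%) and 0 (7.56%). The bile acid receptor Nr1h4 was at 12.53 to 13.95 and above the background on all arrays, with its highest value in Pxr-/- PCN 4. Its target Nr0b2 (SHP), like Fgf15, was above the background on no array. Fgfr4, the FGF15 receptor, was at 10.87 to 11.53 and differed by 0.27 with PCN in Pxr-/- (SE 0.10, limma adjusted p = 0.573). Klb, its co-receptor β-Klotho, was at 5.87 to 9.24 and ran against Slc51a (r = −0.904). Malrd1, known for raising FGF15 output and named here after its values were seen, ran with Slc51a (r = 0.901), from 4.95 to 9.22. The rate-limiting enzyme Cyp7a1 and Cyp8b1 were above the background on no array.

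Cyp7b1, the oxysterol 7α-hydroxylase that follows Cyp27a1 in the alternative pathway, was at 7.65 to 8.04 in Pxr-/- CONT and at 8.38 to 8.83 in Pxr-/- PCN, without overlap. The difference was 0.74 (SE 0.18, unadjusted p = 0.00114, exact permutation p = 0.0159, limma adjusted p = 0.364), and with PCN in WT it was 0.51 (SE 0.20, limma adjusted p = 0.956). It was, without the 4 near-identical arrays, 0.82 in Pxr-/- (SE 0.18, limma adjusted p = 0.289) and 0.79 in WT (SE 0.20, limma adjusted p = 0.498), where the 2 PCN arrays left lay apart from the 4 CONT arrays (exact permutation p = 0.133, the smallest possible). Ch25h, cholesterol 25-hydroxylase, differed by 0.64 in WT PCN against WT CONT (SE 0.21, exact permutation p = 0.0286, limma adjusted p = 0.956), also without overlap. Acox2, which shortens the side chain, differed there by 0.63 (SE 0.34, limma adjusted p = 0.956). Among the WT PCN arrays in these values, WT PCN 3 and WT PCN 4 are of the near-identical pairs. Cyp7b1 and Ch25h were named for their small p, and the share of all probes without overlap was not counted.

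The oxysterol receptor LXRα, Nr1h3, differed by −0.59 in Pxr-/- CONT against WT CONT (SE 0.24, limma adjusted p = 0.343), and differed by 0.55 with PCN in Pxr-/- (SE 0.24, limma adjusted p = 0.647). Its difference of PCN effects was 0.74 (SE 0.34, limma adjusted p = 0.848), and that of the organic anion carrier Slco2b1 was 0.32 (SE 0.22, limma adjusted p = 0.848). Nr1i2 itself was −1.06 in Pxr-/- CONT against WT CONT (SE 0.25, exact permutation p = 0.0159, limma adjusted p = 0.201) and 0.80 in the difference of PCN effects (SE 0.37, limma adjusted p = 0.848), the latter being 0.51 without the 4 near-identical arrays (SE 0.38, limma adjusted p = 1.00). Cyp39a1, another oxysterol 7α-hydroxylase, was −0.32 in Pxr-/- CONT against WT CONT (SE 0.14, limma adjusted p = 0.369). Between Pxr-/- PCN and WT PCN, the bile salt export pump Abcb11 differed by −0.32 (SE 0.19, exact permutation p = 0.0286), Nr5a2 (LRH-1) by 0.17 (SE 0.15) and Fgfr4 by 0.21 (SE 0.10), with limma adjusted p = 1.00 for each. Abcb11 was dim, at 5.19 to 6.51 and above the background on only 7 arrays. Its highest value was in WT CONT 5, also the highest array for the mean of the liver genes, and their part in it was not tested.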

How the data were processed

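Total RNA of colon was labelled with Cy3 and hybridized to 1-colour Agilent arrays of 60-base probes. The authors deposited the scanner output of Agilent Feature Extraction 10.10.1.1, in which the intensity of a spot is its median brightness without normalization between arrays, with the local background intensity and flags for outlier spots and spots well above the background. Log2 values of 36695 probes, normalized between arrays, were deposited as well. Their methods name the median signal, log2, a correction for the 2 wash baths and the CrossNorm normalization, for which quantile normalization stands in here.

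Control spots and spots with an outlier flag were dropped, and the median intensity of the remaining spots (59305 per array before flags) was log2-transformed, quantile-normalized and averaged over the spots of a probe (56605 probes). A probe was tested where 4 or more arrays had it well above background (38703 probes), with limma 3.58.1 in R 4.3.3, 4 groups and the wash bath as terms, and Benjamini-Hochberg adjustment over all tested probes. Where a gene had several probes, that with the highest mean in the deposited log2 table was used. Exact two-sided permutations of the labels (smallest p 0.0286 for 4 against 4 and 0.0159 for 5 against 4) ignored the bath. Groups came from the labels. Nothing states separate extractions, so p-values measure the spread between these samples. The number of arrays limits the precision. Arrays of WT PCN against WT CONT were simulated over 32160 probes, with independent noise at the spread of each probe. There 92% of 100 probes changed by 1 and 96% of 100 changed by 2 on the log2 scale were called, with 5 unchanged ones. The changed probes were drawn at random from probes with a median SD of 0.171. These shares do not hold for members such as Slc51a and Slc10a2, with SDs within groups of 3.01 and 1.58.

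The members and lists were chosen with earlier results of these data known. All members are named, and of 35 other pathway genes Nr1h4, Nr0b2, Nr1i2, Fgfr4, Klb and the 3 with the smallest p in each comparison, and for likeness the 3 genes with the highest r per member. Malrd1, Cyp7a1, Cyp8b1 and Slc10a1, and single genes of the marker lists, were named after their values were seen. Lists of goblet, enteroendocrine, enteric neuron, smooth muscle and adipocyte markers were also fixed. Alternatives were other normalizations, background corrections and filters, blocks, left-out arrays and each bath alone. The Hox covariate, the split at the gap of Slc51a and the fit without the 4 near-identical arrays and Pxr-/- PCN 4 were chosen after seeing the data.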

Additional observations from a re-analysis of the deposited data

Results flagged for a closer look

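Gpbar1 in WT PCN replicate 4 was at 7.32 (log2 signal), away from the other 3 arrays of the group at 7.56 to 7.57. Of 28 gene and group combinations tested for a sample far from the others, this was the 1 found, and chance gives about 1 in 20. WT PCN 4 is near-identical to Pxr-/- PCN 2, which was at 7.26. In the other near-identical pair Gpbar1 was at 7.57 (WT PCN 3) and 7.18 (Pxr-/- CONT 2).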

How the results depend on the processing

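No member or other pathway gene was called by limma under any of the alternatives run. Of 989 fitted log2 differences of members under alternatives, 960 kept their direction or moved by at most 1 SE, and 29 turned. The smallest adjusted p was 0.219. In the second wash bath WT PCN 1 was the only WT PCN array, so values there that involve WT PCN rest on it. Within that bath, PCN in WT gave −0.72 for Slc10a2, −3.17 for Slc51a and 1.07 for Cyp27a1. Pxr-/- CONT against WT CONT gave −0.74 for Slc10a2 and −0.21 for Gpbar1, and Pxr-/- PCN against WT PCN gave −0.77 for Cyp27a1. The difference of PCN effects there was 6.24 for Slc51a, 0.73 for Slc51b and −0.40 for Cyp27a1. Within the first bath, PCN in WT gave −0.57 for Fabp6, and PCN in Pxr-/- gave −0.72 for Slc10a2, −3.00 for Slc51a and −0.48 for Slc51b. Pxr-/- PCN against WT PCN gave −0.49, −2.18 and −0.53 for the same genes, and the difference gave −2.43 for Slc10a2. Without the 4 near-identical arrays, also with Pxr-/- PCN 4 left out, Cyp27a1 for PCN in WT was 0.43. Without those 5 arrays, PCN in Pxr-/- gave −0.0021 for Slc10a2, −2.66 for Slc51a and −0.23 for Slc51b, and Pxr-/- PCN against WT PCN gave −0.56 for Slc10a2, −0.59 for Slc51b and −0.22 for Cyp27a1. With each array left out in turn, PCN in Pxr-/- ranged from −0.10 to 1.95 for Slc10a2, −1.84 to 1.93 for Slc51a, −0.11 to 0.70 for Slc51b, 0.90 to 1.84 for Fabp6 and 0.46 to 0.88 for Cyp27a1, and Pxr-/- PCN against WT PCN from −0.28 to 1.33 for Slc10a2, with the negative ends those without Pxr-/- PCN 4. The cause was not tested. Fabp6 for PCN in Pxr-/- was 0.75 and 2.19 within the baths.

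Of 22 same-numbered pairs of samples, 11 had a correlation of deviations over 0.1, in a range of −0.333 to 0.493. Differently numbered pairs were not compared, so whether the replicate numbers pair the samples was not tested. With the replicate block, 0 members were called, Slc51b for PCN in WT was 0.83 (limma adjusted p = 0.557) and Fabp6 for PCN in Pxr-/- 1.52 (limma adjusted p = 0.636).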

Other observations

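Markers of neighbouring organs were high on some arrays. The mean log2 level of 5 pancreas genes was 17.47 in WT CONT 4, 15.19 in WT PCN 3, 15.14 in Pxr-/- CONT 2 and 10.61 in WT PCN 1, against 5.30 to 5.87 on the other 13. The mean of 5 liver genes was 12.09 in WT CONT 5, 9.55 in WT PCN 1 and 9.14 in WT PCN 2, against 6.07 to 7.38 on the other 14. Insl5, a hormone of enteroendocrine cells of the distal gut, was at 9.43 to 14.33 and had r = −0.909 with Slc51a over 17 arrays, while the other enteroendocrine genes had r = −0.789 (Pyy), −0.108 (Neurod1), 0.425 (Chga) and 0.542 (Gcg). The 2 probes of Slc10a1, the bile acid uptake carrier of hepatocytes, disagreed, with log2 signals of 18.29 to 18.55 on every array for one and of 4.77 to 6.68, above the background on 1 array, for the other. Of the lists of other cells, goblet cell markers averaged 17.47 to 18.03 over the 17 arrays, enteroendocrine 11.52 to 12.52, enteric neuron 9.76 to 10.63, smooth muscle 14.71 to 15.61, adipocyte 6.61 to 10.25 and Paneth cell markers 8.25 to 11.76.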
